A study of Mus musculus with 8 samples.

Results

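A3 differentiating spermatogonia were compared with undifferentiated Aal spermatogonia, which gives the net change in transcripts over the first part of spermatogonial differentiation. The comparison rested on 5 of the 8 libraries of the series, 2 of Aal and 3 of A3, chosen by their titles. The 3 A1 libraries, from an earlier differentiating stage, entered no test and are given beside some results. All libraries came from EGFP-positive germ cells sorted by fluorescence from testes of Uchl1-eGfp mice outcrossed to CD-1, in which EGFP is expressed from the *Uchl1* promoter. The shared protocol gave pups the retinoic acid (RA) synthesis inhibitor bis-(dichloroacetyl)-diamine orally at 100 µg per g of body weight from postnatal day 1, and then 1 subcutaneous injection of 10 µl RA at 10 µg/µl on day 11. Aal cells are the undifferentiated population that accumulates under the inhibitor, and A3 cells arise after the injection. The protocol is given alike for both groups, without saying whether the Aal animals had received RA before collection. Where exposure to RA or time since the inhibitor differs between the groups, it cannot be told apart from stage. Each library is taken as a separate cell preparation, since the study's methods give 2 or 3 independent preparations for RNA-seq. How many animals went into each is not stated there. The age at collection is not given in the labels used here.

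Spermatogonia are the mitotic germ cells of the testis. Undifferentiated spermatogonia include the stem cells and answer to GDNF from Sertoli cells, the somatic cells that line the tubule and surround every germ cell, through the receptor RET. A pulse of RA commits them to a fixed series of divisions, A1 to A4, intermediate and B, that ends with entry into meiosis. The series is known for the loss of stem cell regulators such as NANOS2 and ID4 and for the gain of KIT and of the SOHLH factors.

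The deposited values are FPKM, a level corrected for both gene length and library size. The table holds 5736 genes, with 34.0% to 34.4% of each library's reads, and every gene in it has at least 1 read in every library. *Kit* and *Stra8* were not analysed here. The 5 libraries held 18944949 to 25252713 reads in all, and the counting error of the median gene was 5.0% to 5.9% per library. Within groups, log2(FPKM + 1) correlated across genes at 0.987 to 0.996. Genes with at least 1 FPKM in at least 2 of the 5 libraries were tested, 4687 of them. A gene was called at a limma adjusted p (Benjamini-Hochberg) of at most 0.01 and a log2 fold change above 1 in size, on the log2(FPKM + 1) scale. Because 1 is added before the log, changes of genes at low FPKM come out too small on it.

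The labels were checked against defining markers. Of 5 germ cell markers 3 were in the table, *Uchl1*, *Dazl* and *Elavl2*, with a summed level of 4840 to 5542 FPKM in Aal and 5729 to 6325 in A3. Of 7 undifferentiated markers 5 were in the table, and their sum was 228 and 254 FPKM in Aal against 49.7 to 58.1 in A3. The differentiating markers *Sohlh2* and *Dmrtb1*, 2 of 5 in the table, summed to 37.3 and 44.4 FPKM in Aal and 154 to 174 in A3. *Uchl1*, a deubiquitinating enzyme abundant in spermatogonia, had the highest FPKM of the table, at 4493 and 5227 in Aal and 5569, 5280 and 5912 in A3. Its groups did not overlap, and its log2 fold change of 0.20 (SE 0.17) was within the error (limma adjusted p 0.325). Of 12 Sertoli cell markers, 6 were in the table. Their sum was 22.2 and 34.8 FPKM in Aal and 172 to 327 in A3, so Sertoli transcripts moved with the comparison, and the genes that follow them are set apart below. Less RNA per cell of a type and fewer such cells cannot be told apart in bulk libraries.

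In total 823 of 4687 genes were called (17.6%), 369 higher in A3 (7.87% of those tested) and 454 lower (9.69%). The libraries of the groups did not overlap in any of the 823, against 73.1% of all genes tested. The median log2 fold change of all tested genes was 0.05. Calls reached from -3.05 to 4.26, with 46 rises above 2 and 32 falls below -2. Of the rises, 89 were under 1 FPKM in both Aal libraries, and of the falls 102 were under 1 FPKM in all A3 libraries, so these genes passed the filter only through the group where they were high. At least 10 reads in every library were behind 761 of the 823. Among the rises, 52 followed Sertoli transcripts by the rule described below, which left 317 rises and 454 falls.

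The largest rises led with transcription factors. *Tbx1*, a T-box factor of pharyngeal and heart development (chromosome 16, 18581806 to 18588113, mm9), was at 1.42 and 0.388 FPKM in Aal and at 26.1, 36.2 and 41.7 in A3. That is a log2 fold change of 4.26 (SE 0.26, limma adjusted p 1.36e-05), the largest of all tested genes. *Cited1*, a transcriptional coregulator that binds CBP/p300 (chromosome X, 99442720 to 99447520), was at 4.80 and 2.88 FPKM in Aal and 68.5, 66.3 and 79.2 in A3. *Dmrtb1*, a DM-domain factor needed for the switch from mitosis to meiosis (chromosome 4, 107348895 to 107356835), was at 11.7 and 2.40 FPKM in Aal and 77.7, 81.1 and 97.8 in A3. Its Aal libraries differed far more from each other than its A3 libraries did, and its log2 fold change was 3.71 (SE 0.44, limma adjusted p 0.000216). The homeobox gene *Nobox*, best known from the oocyte (chromosome 6, 43253673 to 43259561), was at 1.29 and 1.22 FPKM in Aal and 19.5, 20.5 and 21.8 in A3. Its spread was the narrowest of these (log2 fold change 3.26, SE 0.11, limma adjusted p 3.13e-06).

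*Id2*, an inhibitor of basic helix-loop-helix factors and a relative of *Id4*, rose from 1.40 and 0.845 FPKM in Aal to 11.5, 18.0 and 17.1 in A3. *Gadd45b*, a stress and growth-arrest gene, went from 3.01 and 1.64 FPKM to 21.2, 24.1 and 23.3. The G protein gamma subunit *Gng3* was at 0.317 and 0.891 FPKM in Aal and 12.8, 12.4 and 12.3 in A3, but it overlaps *Bscl2* on the other strand. These 3 genes had log2 fold changes of 2.95, 2.87 and 3.1. *Gal*, the precursor of the neuropeptide galanin, rose from 0.368 and 0.556 FPKM to 5.83, 9.31 and 11.9. *Ap5b1*, a subunit of an endosomal adaptor complex, rose from 1.92 and 1.3 FPKM to 13.4, 21.5 and 24.0. The entry *Mir6374*, a microRNA locus whose transcript and not mature form was counted here, rose by 2.72 on the log2 scale on as few as 5 reads in a library. The other 5 of the 15 largest rises, *Cst12*, *Defb19*, *Cst9*, *Clu* and *Shbg*, followed Sertoli transcripts.

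**Figure D1:**
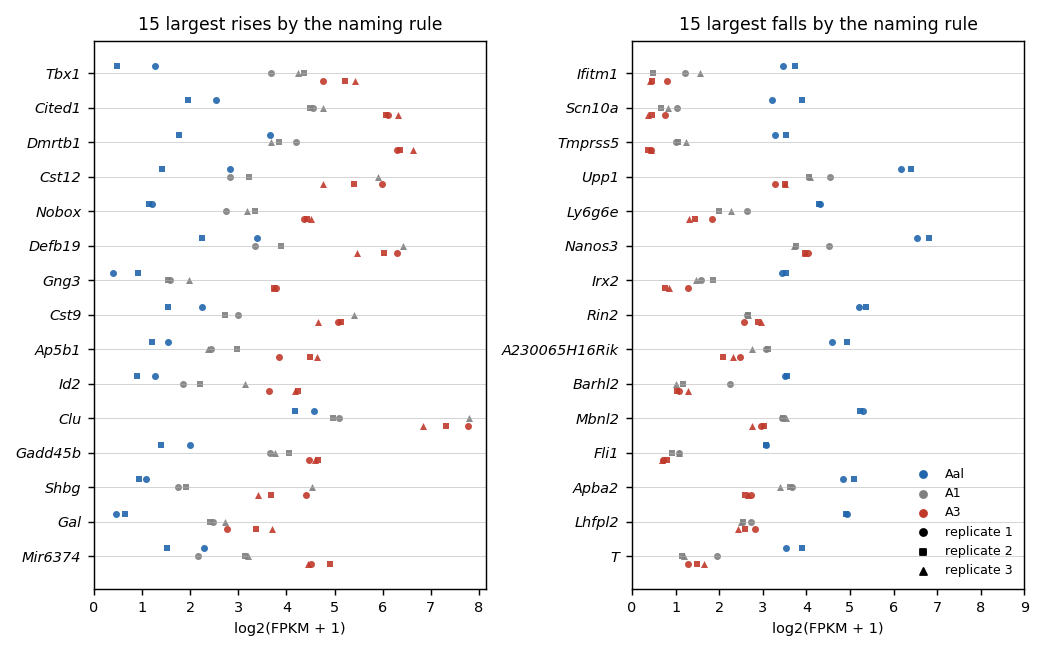
The 15 largest rises and 15 largest falls by the naming rule, as log2(FPKM + 1) on the x axis, with one point per library (blue Aal, gray A1, red A3; circle, square and triangle for replicates 1, 2 and 3). The naming rule took only genes whose Aal and A3 libraries do not overlap. For *Cst12*, *Defb19*, *Cst9*, *Clu* and *Shbg* the A1-3 triangle sits among or above the A3 points, away from the other A1 libraries.

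The largest falls included membrane proteins, regulators of germline stem cells and developmental factors. *Upp1*, uridine phosphorylase (chromosome 11, 9018106 to 9036173), was at 70.4 and 83.2 FPKM in Aal and 8.79, 10.3 and 10.4 in A3, a log2 fold change of -2.84 (SE 0.11, limma adjusted p 3.13e-06). *Nanos3*, an RNA-binding protein of germ cell maintenance (chromosome 8, 86697632 to 86700451), was at 91.4 and 112 FPKM in Aal and 15.3, 14.8 and 14.6 in A3, a log2 fold change of -2.68 (SE 0.09, limma adjusted p 3.13e-06). These 2 were abundant in Aal and tight in both groups. *Ifitm1*, an interferon-inducible membrane protein also known from primordial germ cells, fell from 10.1 and 12.4 FPKM to 0.754, 0.373 and 0.330, the largest fall of all tested genes (log2 fold change -3.05, SE 0.17). The voltage-gated sodium channel *Scn10a* fell from 8.22 and 14.0 FPKM to 0.691, 0.376 and 0.290. The serine protease *Tmprss5* went from 8.69 and 10.5 FPKM to 0.360, 0.284 and 0.348. *Ifitm1*, *Scn10a* and *Tmprss5* were under 1 FPKM in all 3 A3 libraries.

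Among the other large falls, *Rin2*, a RAB5 exchange factor, went from 35.9 and 40.2 FPKM to 4.93, 6.42 and 6.82. *Mbnl2*, a splicing regulator, went from 38.3 and 36.7 FPKM to 6.71, 7.15 and 5.71. *Apba2*, an adaptor of synaptic vesicle transport, went from 27.5 and 32.9 FPKM to 5.59, 5.01 and 5.29. *Lhfpl2* (log2 fold change -2.30), *Ly6g6e* (-2.77) and *A230065H16Rik* (-2.47) fell by similar amounts. The rest are developmental transcription factors. *Irx2* and *Barhl2*, both homeobox genes, fell by 2.52 and 2.40 on the log2 scale, the ETS factor *Fli1* by 2.35 and *T* (Brachyury) by 2.24. *Rin2*, *Mbnl2*, *Lhfpl2* and *Ly6g6e* overlap other annotated genes, and whether counting used strand is not stated, so part of their reads is uncertain. The same holds for *Tubb3*, *Slc2a3*, *Ltbp1*, *Id4*, *H2afy*, *Txnip* and others named below.

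The stem and progenitor list held 34 genes of the table. Of its 33 tested genes, 18 fell (54.5%, against 9.69% of all tested genes) and 1 rose. The median log2 fold change was -1.27, against 0.05 for all tested genes. *Upp1*, *Nanos3* and *T* fell most. *Id4*, which marks the stem cell fraction (chromosome 13, 48356796 to 48359405), was at 32.2 and 24.7 FPKM in Aal and 9.57, 6.31 and 7.13 in A3 (log2 fold change -1.77, SE 0.17, limma adjusted p 8.41e-05). *Nanos2*, a translational repressor that holds the stem cell state (chromosome 7, 19572873 to 19574311), was at 7.05 and 9.49 FPKM in Aal and 1.43, 1.24 and 2.15 in A3 (log2 fold change -1.83, SE 0.19, limma adjusted p 0.000107). Both genes were lower in every A3 library than in either Aal library. Their detection in A3 says nothing, since every gene of the table has at least 1 read in every library. The single rise was *Ccnd1*, cyclin D1, from 22.7 and 20.1 FPKM to 64.7, 81.7 and 87.1 (log2 fold change 1.81). Its relative *Ccnd2* fell from 42.2 and 39.2 FPKM to 18.3, 18.1 and 18.1 (log2 fold change -1.12), so these D-type cyclins went in opposite directions.

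Of 21 tested genes of GDNF, FGF and MAPK signaling 5 fell (23.8%, against 9.69% of all tested genes) and 1 rose, with a median of -0.39. *Ret*, the GDNF receptor kinase (chromosome 6, 118101766 to 118147762), fell from 78.7 and 86.5 FPKM to 23.5, 17.6 and 17.5, a log2 fold change of -2.04 (SE 0.13). The transcription factor *Etv5*, a target of GDNF, fell from 39.6 and 50 FPKM to 14.8, 14.2 and 14.0. *Dusp6*, a phosphatase that acts on ERK and is itself induced by it, fell from 34.5 and 36.5 FPKM to 13.1, 11.7 and 12. Another MAPK phosphatase, the X-linked *Dusp9*, rose from 14.7 and 16.1 FPKM to 48.5, 55.8 and 59.2 (log2 fold change 1.76, SE 0.10). Receptor, transcription factor and *Dusp6* thus shared a direction that *Dusp9* did not.

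Differentiation genes rose. Of 19 tested genes of the list 9 rose (47.4%, against 7.87% of all tested genes) and 1, *Ccnd2*, fell, with a median of 1.08. The list, like the others, was written with earlier results of these data known, so its counts are a description only. Besides *Tbx1*, *Cited1* and *Dmrtb1*, *Sohlh2*, a basic helix-loop-helix factor of early differentiation (chromosome 3, 54985950 to 55013879), rose from 32.7 and 34.9 FPKM to 76.7, 83.3 and 76.5 (log2 fold change 1.2, SE 0.07, limma adjusted p 1.36e-05). RA genes were represented by 11 tested members, of which 3 rose and 0 fell at these thresholds (7 higher and 1 lower at an adjusted p of at most 0.01 with no fold threshold). *Crabp1*, which binds RA in the cytoplasm, rose from 85.7 and 77.8 FPKM to 340, 370 and 418 (log2 fold change 2.18, SE 0.10). *Crabp2*, its relative, rose by 1.48 on the log2 scale.

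**Figure D2:**
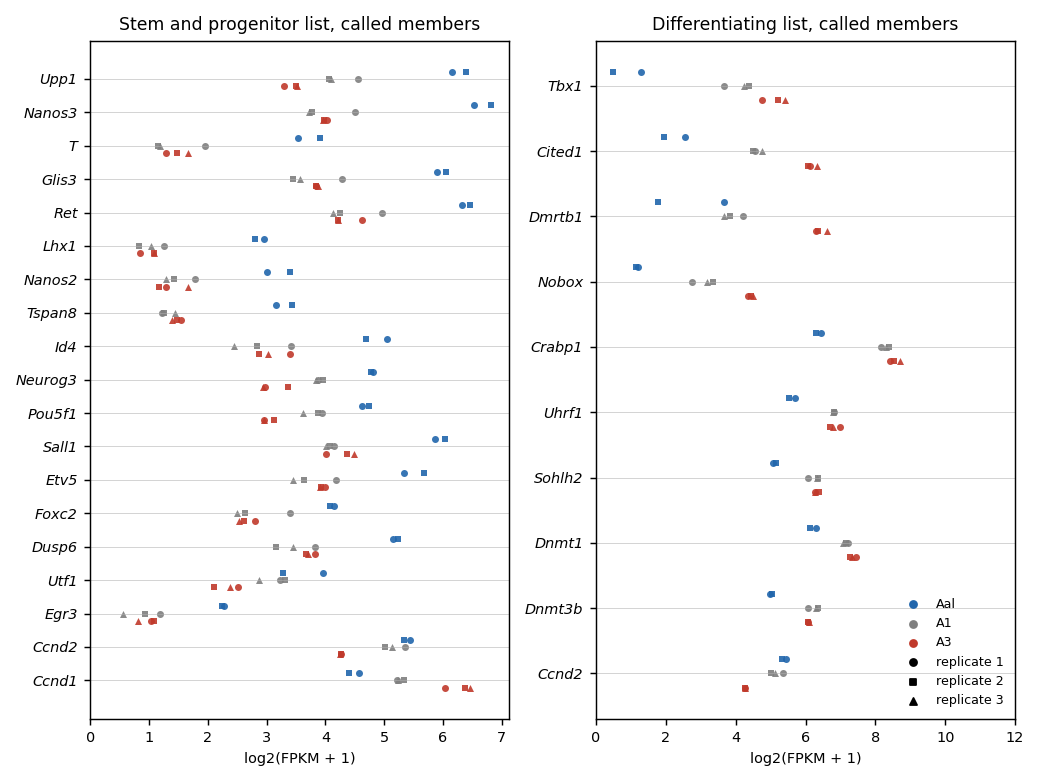
Called members of the stem and progenitor list and of the differentiating list, as log2(FPKM + 1) on the x axis, with one point per library (blue Aal, gray A1, red A3). Of the stem and progenitor genes *Ccnd1* alone has its A3 points to the right of Aal, and of the differentiating genes *Ccnd2* alone has them to the left.

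Replication genes were higher in A3. Of 32 tested genes of DNA replication and S phase 13 rose and 0 fell (40.6% higher, against 7.87% of all tested genes), with a median of 0.88. *E2f8*, an atypical E2F factor of the cell cycle, rose from 4.26 and 3.02 FPKM to 17.6, 13.2 and 12.9 (log2 fold change 1.75, SE 0.17). *Nasp*, a histone H1 and H3 chaperone, rose from 96.0 and 62.8 FPKM to 247, 201 and 212 (log2 fold change 1.48, SE 0.17). *Rnaseh2c*, a subunit of the enzyme that removes ribonucleotides from DNA, rose from 8.85 and 6.97 FPKM to 22.6, 19.3 and 24.2, and overlaps *Kat5* on the other strand. Without Aal replicate 2, 8 members of the list were called.

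Mitotic genes rose as well. Of 54 tested genes of G2, mitosis and cytokinesis, 19 rose and 0 fell (35.2% higher), with a median of 0.77, and at an adjusted p of at most 0.01 with no fold threshold 38 were higher and 3 lower. *Plk1*, the kinase that drives mitotic entry and exit (chromosome 7, 129302951 to 129313389), was at 18.1 and 16.7 FPKM in Aal and 40.6, 78.8 and 89.6 in A3, a log2 fold change of 1.87 (SE 0.28, limma adjusted p 0.000702, and 0.0108 without Aal replicate 2, no longer called). *Top2a*, the topoisomerase that untangles chromosomes (chromosome 11, 98854257 to 98885503), was at 41.4 and 32.3 FPKM in Aal and 115, 133 and 129 in A3 (log2 fold change 1.75, SE 0.11, limma adjusted p 1.59e-05). *Prc1*, which bundles microtubules of the central spindle, went from 27.9 and 26.7 FPKM to 70.2, 93.8 and 94.9. For *Plk1* and *Prc1* the library A3-1 was lowest of its group, while for *E2f8* and *Nasp* it was highest. The median over all tested members, relative to the Aal mean, was 0.73 in A3-1, 0.83 in A3-2 and 0.77 in A3-3 for the mitotic list and 0.97, 0.82 and 0.81 for the replication list. Without Aal replicate 2, 12 mitotic genes were called.

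**Figure D3:**
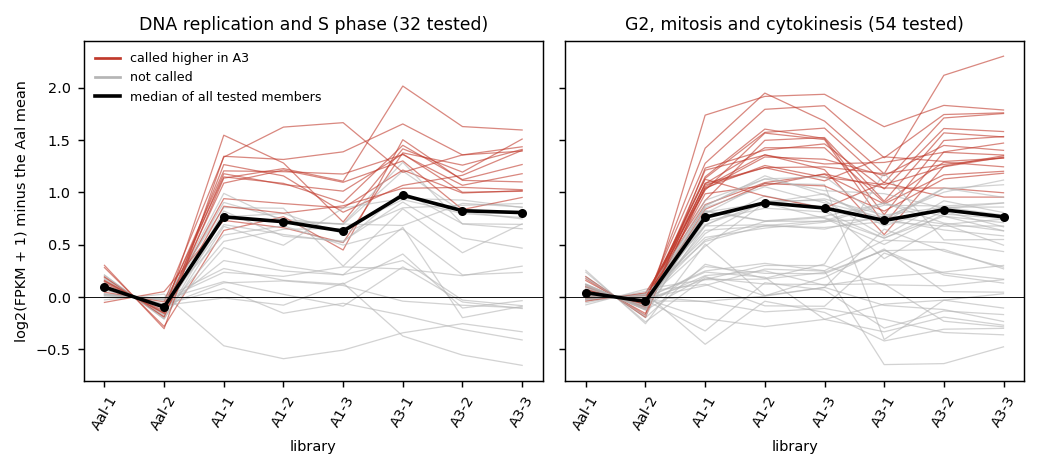
Level of each tested replication gene (left) and mitotic gene (right) in every library, as log2(FPKM + 1) minus the mean of the Aal libraries, with called rises in red and the median of all tested members in black; lines only join the values of one gene. The median lies between 0.63 and 0.97 in all A1 and A3 libraries for both lists.

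Promoter sequences are shown for mitotic genes that rose, since many such genes share a short run of letters near their start, the cell cycle genes homology region (CHR). The run TTTGAA was searched on both strands in RefSeq windows of 300 bases (250 before the start site, GRCm38.p6). Windows were found for 14 of the 19 mitotic genes called, and 12 of the 14 (85.7%) held the run, against 24 of 41 tested mitotic genes with a window (58.5%) and 20.2% of all genes with a window. The capitals mark TTTGAA, or TTCAAA where it lies on the other strand, in the 4 genes with the largest rises.
*Plk1*, chr7:122159185-122159484, plus strand: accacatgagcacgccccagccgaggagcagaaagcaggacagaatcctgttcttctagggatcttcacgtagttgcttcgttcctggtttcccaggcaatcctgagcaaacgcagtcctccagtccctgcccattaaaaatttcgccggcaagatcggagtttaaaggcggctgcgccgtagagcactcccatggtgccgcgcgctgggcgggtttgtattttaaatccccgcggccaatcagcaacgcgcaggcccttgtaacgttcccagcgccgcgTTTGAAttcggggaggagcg
*Top2a*, chr11:99024140-99024439, minus strand: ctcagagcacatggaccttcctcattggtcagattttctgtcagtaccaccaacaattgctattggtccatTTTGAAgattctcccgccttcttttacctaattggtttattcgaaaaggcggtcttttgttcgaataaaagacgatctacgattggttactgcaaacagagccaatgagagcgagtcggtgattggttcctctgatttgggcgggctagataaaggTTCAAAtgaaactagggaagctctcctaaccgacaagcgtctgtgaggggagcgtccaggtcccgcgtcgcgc
*Prc1*, chr7:80294201-80294500, plus strand: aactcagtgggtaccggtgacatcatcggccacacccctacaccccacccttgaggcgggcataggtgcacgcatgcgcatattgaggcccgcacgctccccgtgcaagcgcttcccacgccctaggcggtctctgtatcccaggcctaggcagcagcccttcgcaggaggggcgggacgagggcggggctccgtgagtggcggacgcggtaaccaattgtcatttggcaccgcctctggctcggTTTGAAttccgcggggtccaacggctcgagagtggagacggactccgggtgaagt
*Ckap2l*, chr2:129297163-129297462, minus strand: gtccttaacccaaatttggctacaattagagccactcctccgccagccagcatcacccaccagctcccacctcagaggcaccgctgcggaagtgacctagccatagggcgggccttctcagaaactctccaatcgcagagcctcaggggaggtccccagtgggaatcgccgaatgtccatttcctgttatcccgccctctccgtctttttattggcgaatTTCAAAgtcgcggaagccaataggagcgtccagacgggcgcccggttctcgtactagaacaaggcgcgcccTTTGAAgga
The runs begin 30 bases after the start site in *Plk1*, 23 and 179 before it in *Top2a*, 5 before it in *Prc1*, and 30 before and 41 after it in *Ckap2l*. RefSeq gives *Prc1* another start site, and the same run begins 30 bases before that one. *Ckap2l*, a spindle protein, was taken into the text for its sequence, and its log2 fold change was 1.41.

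For replication genes the runs TTTCCCGC and TTTGGCGC, letters of the kind that E2F factors bind, were searched in the same windows, a search added after the values were seen. Windows were found for 11 of the 13 replication genes called, and 3 of them (27.3%) held a run, against 10 of 27 tested members with a window (37.0%) and 1.8% of all genes. *Mcm6*, a subunit of the replicative helicase with a log2 fold change of 1.07 (0.94 after quantile normalization and 0.98 without Aal replicate 2, both under the threshold), is shown for its 2 matches, with TTTGGCGC in capitals.
*Mcm6*, chr1:128359656-128359955, minus strand: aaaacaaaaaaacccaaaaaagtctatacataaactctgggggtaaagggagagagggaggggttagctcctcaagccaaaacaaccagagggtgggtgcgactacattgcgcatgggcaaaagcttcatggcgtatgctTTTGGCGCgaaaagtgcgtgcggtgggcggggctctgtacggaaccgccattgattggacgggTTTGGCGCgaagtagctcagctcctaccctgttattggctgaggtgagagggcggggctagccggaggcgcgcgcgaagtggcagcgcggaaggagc
No window of a called mitotic gene other than *Kif15* held these runs, and 6 of the 11 replication genes held TTTGAA. A match is a run of letters and was not tested as a binding site.

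Genes of the list of G1 cyclins, CDK inhibitors and checkpoint went both ways. Of 21 tested genes 4 rose and 2 fell, *Rb1* and the cyclin *Ccnd2*, with a median of 0.00. *Gadd45b* and *Ccnd1* rose most, followed by *Ccng1*, a p53 target, from 17.5 and 11 FPKM to 26.0, 35.3 and 33.8 (log2 fold change 1.12, SE 0.19, and 0.81 without Aal replicate 2, no longer called). *Rb1*, the retinoblastoma protein that restrains E2F, fell from 58.1 and 56.4 FPKM to 25.6, 23 and 21.7 (log2 fold change -1.26, SE 0.08), with other annotated genes inside it. In the DNA repair list 1 of 34 tested genes rose, *Rad51ap1* (log2 fold change 1.2), and 1 fell, *Neil2*, a base excision glycosylase (-1.31).

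Meiotic genes, which act after the spermatogonial divisions, were partly raised. Of 22 tested genes of break formation, strand exchange and crossover 5 rose and 1 fell (22.7% higher), with a median of 0.16. *Dmc1*, the meiotic recombinase (chromosome 15, 79391930 to 79435529), was at 9.12 and 6.55 FPKM in Aal and 15.2, 20.9 and 17.5 in A3 (log2 fold change 1.1, SE 0.16, limma adjusted p 0.000617). It overlaps another annotated gene on its own strand, and it was at 0.89 without Aal replicate 2 and 0.99 without A3 replicate 2, under the fold threshold. *Mei1*, needed for break formation, rose from 5.39 and 3.95 FPKM to 12.4, 16.1 and 16.6 (log2 fold change 1.5). *Ccdc36*, also known as *Iho1* and part of the break machinery, rose from 8.37 and 7.56 FPKM to 21.8, 21.3 and 20.7 (1.31), and the strand exchange factor *Psmc3ip* by 1.29 (0.94 without Aal replicate 2, under the fold threshold). *Spo11*, the protein that makes the breaks, fell instead, from 12.5 and 12.2 FPKM to 4.39, 5.94 and 5.93 (log2 fold change -1.06, SE 0.14, and -0.94 without A3 replicate 1).

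Of 16 tested genes of the meiotic axis and cohesion list, 0 rose at these thresholds and 2 fell, *Spo11*, which stands in both lists, and the cohesin subunit *Rad21l*, from 15.9 and 15.1 FPKM to 5.76, 4.94 and 5.04 (log2 fold change -1.40). With no fold threshold 5 members were higher and 2 lower. *Rec8*, the meiotic cohesin kleisin (chromosome 14, 56236874 to 56244232), was at 11.5 and 9.23 FPKM in Aal and 14.9, 17.1 and 15.1 in A3. Its groups did not overlap and its limma adjusted p was 0.00370, but its log2 fold change of 0.56 (SE 0.12) was under the threshold. All 3 A1 libraries were higher, at 23.8, 32.1 and 29.0 FPKM. Among 26 tested genes of the piRNA and germline RNA-binding list, *Nanos3* and *Nanos2* fell and *Ybx2*, which stores messenger RNA in germ cells, rose from 15.6 and 14.2 FPKM to 34.2, 56.9 and 66.4 (log2 fold change 1.70).

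Of 13 tested genes of DNA methylation and demethylation 4 rose (30.8%) and 1 fell, with a median of -0.02, and after quantile normalization 2 rose and 1 fell. *Dnmt1*, the maintenance methyltransferase, rose from 78.3 and 68.9 FPKM to 173, 152 and 160 (log2 fold change 1.13, SE 0.08, and 0.92 after quantile normalization). *Uhrf1*, which brings DNMT1 to newly replicated DNA, rose from 51.3 and 45.3 FPKM to 125, 102 and 110 (1.2). *Hells*, a helicase needed for DNA methylation, rose from 133 and 110 FPKM to 312, 290 and 263 (1.24). *Apobec1*, a cytidine deaminase of RNA editing, fell from 1.79 and 2.02 FPKM to 0.233, 0.435 and 0.210.

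Of 65 tested chromatin genes 4 rose and 6 fell, a share near that of all genes (15.4% against 17.6%), with a median of 0.02. The macroH2A genes fell together: *H2afy* from 98.9 and 98.0 FPKM to 35.9, 28.1 and 28.4 (log2 fold change -1.65, SE 0.11) and *H2afy2* from 54.8 and 56.4 FPKM to between 15.9 and 19 (-1.64, SE 0.09). They encode histone variants linked to stable repression. The remodeler *Chd1* fell by 1.38 on the log2 scale. The oocyte linker histone *H1foo* reached 1.91, 2.17 and 3.31 FPKM from 0.547 and 0.526 (1.15), and *Arid5a* rose by 1.03, and both lost their call in several fits that left out a library.

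Cytosolic ribosomal protein genes were a little lower as a group. Of 30 tested, 1 was called, but 26 had a negative log2 fold change, 18 of them at an adjusted p of at most 0.01, and the median was -0.57. It was -0.61 after median-ratio scaling and -0.36 after quantile normalization. *Rps15* was at 1120 and 1182 FPKM in Aal and 799, 772 and 872 in A3 (log2 fold change -0.50, limma adjusted p 0.00264), and *Rpl35* at 1164 and 1207 FPKM against 669, 632 and 647 (-0.87, limma adjusted p 9.39e-05). *Rpsa* had a log2 fold change of -0.49 and the elongation factor *Eef2* one of -0.82. With *Uchl1* these 4 had the highest FPKM of the table, and as such genes have many near-identical copies in the genome, reads may be shared with those. The 1 called was *Rpl22l1*, a paralog of *Rpl22*, from 130 and 121 FPKM to 29.1, 32.0 and 28.4 (log2 fold change -2.04, SE 0.08). No member of the respiratory chain list (0 of 25 tested) or of the mitochondrial ribosome list (0 of 21) was called, and their medians were 0.21 and 0.17. Up to 3 respiratory genes were called as higher when 1 library was left out.

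The list of glycolysis and pentose phosphate genes also held *Pdha1* and the transporter *Slc2a3*. Of its 17 tested members 4 were called lower (23.5%, against 9.69% of all tested genes) and 0 higher, with a median of -0.04. Log2 fold changes were positive in 8 members and negative in 9, and 1 member was called higher with pseudocount 0.1. *Ldha*, lactate dehydrogenase A, fell from 16.9 and 19.8 FPKM to 4.73, 3.73 and 3.49 (log2 fold change -1.96, SE 0.14). *Pdha1*, the X-linked subunit of pyruvate dehydrogenase, fell from 27.3 and 24.4 FPKM to 10.0, 7.43 and 8.34 (-1.49), and the glucose transporter *Slc2a3* fell by 1.18 on the log2 scale. *Txnip*, which limits glucose uptake and binds thioredoxin, fell from 294 and 298 FPKM to 90.1, 79.8 and 78.1 (-1.83, SE 0.08). It belongs to the antioxidant list, where 2 of 20 tested genes rose and 3 fell. *Gpx4*, a selenoprotein that reduces lipid peroxides and is abundant in the germline, rose from 42.6 and 41.4 FPKM to 98.2, 105 and 114 (1.31, SE 0.08). *Txnrd2*, the mitochondrial thioredoxin reductase, rose by 1.16, while the glutathione transferases *Mgst2* and *Gstp1* fell by 2.20 and 1.61 on the log2 scale. In lipid genes 3 of 22 rose and 2 fell. The fatty acid binding proteins *Fabp3*, from 5.11 and 3.11 FPKM to 18.0, 20.7 and 21.0, and *Fabp5*, from 2.56 and 2.93 FPKM to 8.64, 8.40 and 8.56, rose, and the cholesterol exporter *Abca1* fell from 60.6 and 62.1 FPKM to 25.8, 26.2 and 23.5.

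**Figure D4:**
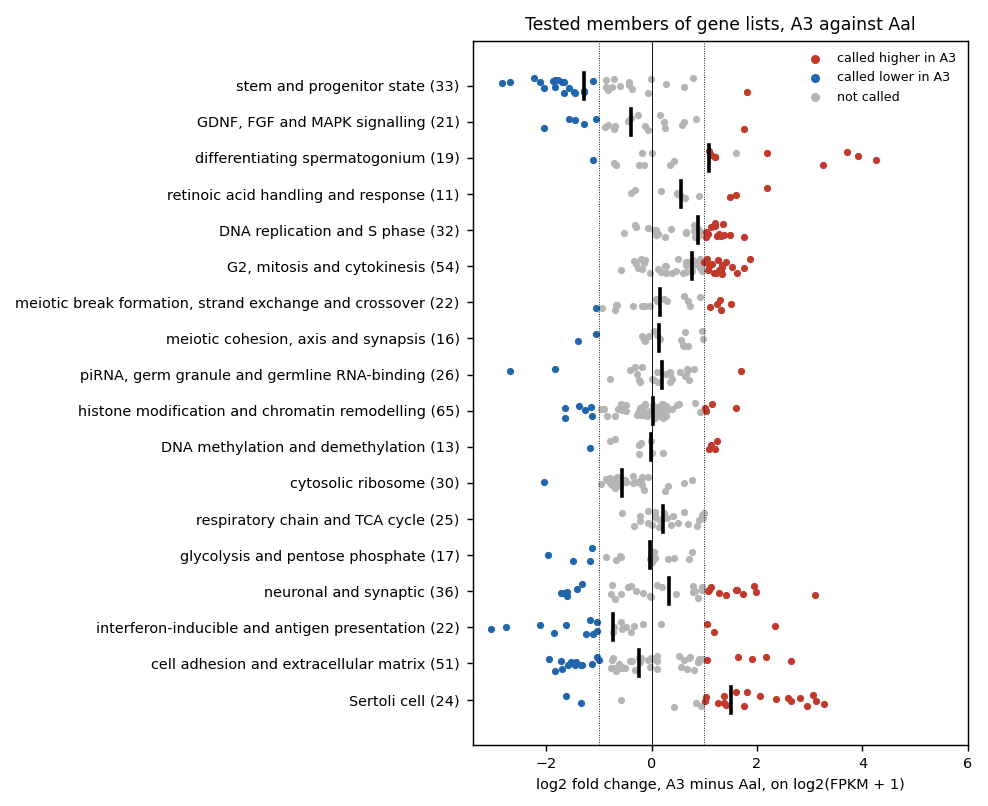
Log2 fold change (A3 minus Aal, on log2(FPKM + 1)) of the tested members of 18 gene lists, with the number tested in parentheses; red points were called higher in A3, blue points lower, gray points not called, and the black bar is the median. The median is -1.27 for the stem and progenitor list, 0.88 for replication, 0.77 for mitosis, -0.57 for cytosolic ribosomal proteins and 1.51 for Sertoli genes.

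Genes known from neurons changed in both directions, 11 of 36 tested higher (30.6%) and 6 lower (16.7%). Besides *Gng3*, *Slc17a7*, a vesicular glutamate transporter, rose from 5.68 and 4.54 FPKM to 17.5, 24.3 and 25.8 (log2 fold change 1.94), and *Tubb3*, the neuronal beta-tubulin, from 2.96 and 2.38 FPKM to 17.9, 11.8 and 11.4 (1.98). *Snap91*, *Shank3* and the neurofilament gene *Ina* fell by 1.73, 1.68 and 1.60 on the log2 scale. Ion channels and receptors gave 6 rises and 6 falls among 34 tested genes, and 2 and 3 without Aal replicate 2. *Scn10a* fell most, and a second sodium channel, *Scn8a*, fell from 4.01 and 3.86 FPKM to 0.633, 0.391 and 0.270. The calcium channel subunit *Cacna1a* fell from 14.6 and 17.3 FPKM to 4.81, 2.40 and 2.76. *Kcnip3* rose from 0.360 and 0.234 FPKM to 3.54, 4.30 and 4.85, *Grin2d* by 1.31 and *Drd4* by 1.37. *Drd4* lost its call without Aal replicate 2 (limma adjusted p 0.0109) and with the Sertoli term over all 8 libraries. *Tubb3* also lost its call with that term over all 8 libraries (log2 fold change 0.99).

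Interferon-inducible, antigen-presenting and LY6 genes were mostly lower, with 10 of 22 tested called lower (45.5%), 3 higher and a median of -0.73. Without Aal replicate 2 these counts were 6 and 1. *Ifitm1*, *Ly6g6e* and *Ly6g6c* fell most, the last from 6.47 and 9.04 FPKM to 1.04, 0.839 and 1.07. The rises were *Ly6k*, a membrane protein of the male germline, from 2.79 and 2.99 FPKM to 10.9, 24.5 and 24.3 (log2 fold change 2.34, SE 0.30), *Irf7* (1.18) and the class I gene *H2-K1* (1.06). Of the 3, *Irf7* and *H2-K1* lost their call without Aal replicate 2.

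Homeobox, T-box, forkhead, SOX and DMRT factors changed widely, 11 of 54 tested higher (20.4%) and 13 lower (24.1%). Of the 11 rises 3 followed Sertoli transcripts. *Tbx1*, *Dmrtb1* and *Nobox* led the rises, and *Irx2*, *Barhl2* and *T* the falls, so the T-box factors *Tbx1* and *T* moved in opposite directions. In the Notch, Wnt, Hedgehog and TGF-beta list 8 of 50 tested genes rose and 5 fell, and 1 of the 8 followed Sertoli transcripts. *Gdf11*, a TGF-beta family ligand, rose from 0.476 and 0.451 FPKM to 2.94, 4.92 and 4.70 (log2 fold change 1.80), and the Wnt receptor *Fzd10* rose from 2.59 and 1.39 FPKM to 4.12, 8.92 and 9.57 (1.47) but lost its call in 4 of the 5 fits without a library. The Wnt effector *Tcf7l2* fell from 16.2 and 17.7 FPKM to 4.53, 3.18 and 3.07 (-1.98), and the extracellular modulators *Ltbp1* and *Fstl1* by 1.78 and 1.63 on the log2 scale.

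Of 51 tested adhesion and matrix genes 13 fell (25.5%) and 5 rose. The falls were led by *Cd34* (from 8.48 and 9.98 FPKM to 1.73, 1.60 and 1.56), the tetraspanin *Tspan8* (from 7.94 and 9.73 to 1.91, 1.76 and 1.61) and the integrin *Itga9* (from 4.36 and 5.19 to 0.752, 0.852 and 0.620). Of the 5 rises 4 followed Sertoli transcripts, among them *Cldn11* and *Sparc*. The 1 that did not was *Spp1*, osteopontin, from 0.674 and 0.504 FPKM to 3.06, 6.34 and 5.99 (log2 fold change 1.9). Without Aal replicate 2, 7 of this list fell and 4 rose. Among transporters of amino acids and nucleosides, *Slc29a4* rose from 2.58 and 2.00 FPKM to 14.2, 15.3 and 16.5 (2.32), while the amino acid carriers *Slc38a4* and *Slc38a1* fell by 1.58 and 1.35 on the log2 scale. Of 34 tested genes of the ubiquitin-proteasome list 1 rose, the conjugating enzyme *Ube2e1* (log2 fold change 1.1, and 0.89 without Aal replicate 2). Of 15 tested genes in the list of testis-restricted X-linked and cancer-testis families, 2 fell. One was *Ctag2* (log2 fold change -1.35, not called without Aal replicate 2). The other was the X-linked RNA helicase *Ddx3x*, a list member that is not restricted to the testis. It fell from 71.3 and 71.0 FPKM to 30.3, 27.9 and 24.9.

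Sertoli cell genes rose in A3. Of 24 tested members of the list 18 rose (75%, against 7.87% of all tested genes) and 2 fell, with a median of 1.51, and 11 rose in the fit of all 8 libraries. *Clu*, clusterin, a secreted chaperone and the best known Sertoli product of the list (chromosome 14, 66587320 to 66600385), was at 22.8 and 17.1 FPKM in Aal and 220, 160 and 114 in A3 (log2 fold change 2.94, SE 0.24, limma adjusted p 3.70e-05). *Cst12*, a cystatin of Sertoli cells (chromosome 2, 148615097 to 148619282), was at 6.14 and 1.68 FPKM in Aal and 62.8, 41.5 and 26.2 in A3 (log2 fold change 3.26, SE 0.43, limma adjusted p 0.000369). In both genes A3-1 was highest and A3-3 lowest of the A3 libraries. The A1 libraries divided: *Clu* was at 32.9 and 30.1 FPKM in A1-1 and A1-2 and at 220 in A1-3, and *Cst12* at 6.09 and 8.38 against 59.2. The 2 falls were *Trf*, transferrin, from 11 and 13.3 FPKM to 3.1, 3.24 and 3.50, and the tight junction gene *Ocln* (log2 fold change -1.34), both of which are also expressed outside Sertoli cells.

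The library A1-3 was used to mark genes that follow these transcripts. A called rise was set apart where its log2(FPKM + 1) in A1-3 was at least 1 above both A1-1 and A1-2. The rule used no A3 or Aal value beyond the call, and it is a description with no test. It held for 52 of the 369 rises (14.1%) and for 89 of all 4687 tested genes (1.9%), of which 2 were called lower and 35 were not called. The 52 had a median log2 fold change of 1.57, against 1.34 for the other 317 rises. Of the 52, 15 belong to the Sertoli list and 37 do not. Another 3 called rises of the Sertoli list did not meet the rule and stay among the 317.

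Several of the 52 are known Sertoli or secreted products. *Defb19*, a beta-defensin, was at 9.46 and 3.74 FPKM in Aal, 77.7, 64.6 and 43.4 in A3 and 9.15, 13.8 and 85.4 in A1. *Cst9* was at 3.74 and 1.92 FPKM in Aal, 32.6, 34.0 and 24.4 in A3 and 6.96, 5.60 and 41.2 in A1. *Shbg*, which makes the androgen-binding protein of the testis, was at 1.12 and 0.906 FPKM in Aal, 20.1, 11.7 and 9.68 in A3 and 2.36, 2.76 and 22.1 in A1. In all 3 genes A1-3 stood above every A3 library. *Cldn11*, the claudin of Sertoli tight junctions, was at 2.15 and 1.23 FPKM in Aal, 22.7, 14.1 and 12 in A3 and 22.0 in A1-3. *Amhr2*, the receptor for anti-Mullerian hormone, was at 1.98 and 1.49 FPKM in Aal, 20.4, 14.5 and 12.3 in A3 and 18.9 in A1-3. The next were *Cpe*, a carboxypeptidase of secretory granules, *Defb36* and the riboflavin transporter *Slc52a3*, with log2 fold changes of 2.45, 2.36 and 2.23.

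The A3 libraries did not carry the 52 genes equally. In 44 of the 52 A3-1 was the highest and A3-3 the lowest A3 library, against 36 of the other 317 rises (11.4%) and 25.8% of all tested genes. In the other rises A3-1 was more often the lowest of the group (206 of 317). In all 52 genes A1-1 and A1-2 were below every A3 library, and in 29 A1-3 was above every A3 library. The summed FPKM of the 30 Sertoli list genes of the table was 90.5 and 70.7 in Aal, 113, 117 and 584 in A1 and 554, 421 and 318 in A3. The rises just inside the rule were *Fshr* (excess of A1-3 1.01) and *Sh3bp5* (1.02), and those just outside were *Tubb3* (0.98) and *Folr1* (0.95). *Sh3bp5* and *Folr1* are named only as these edges.

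**Figure D5:**
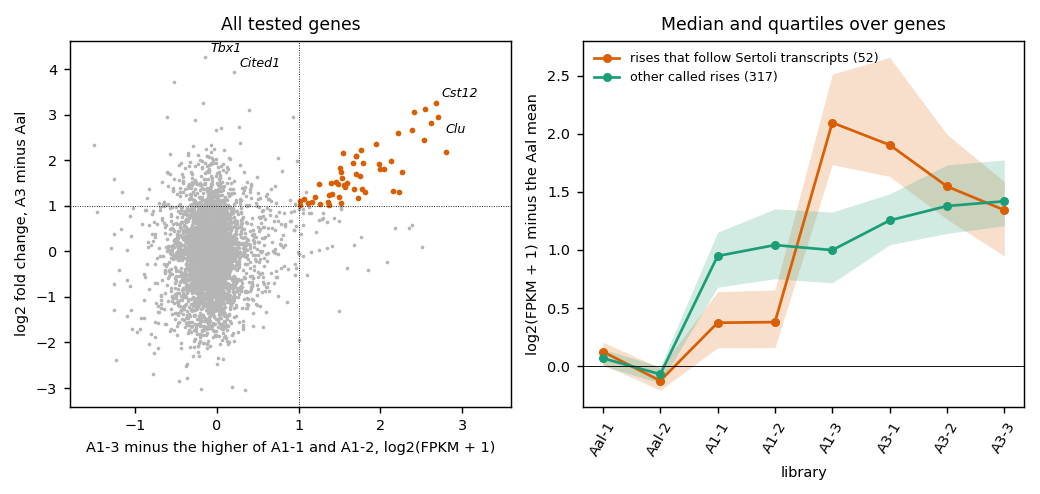
Left, every tested gene by the excess of A1-3 over the higher of A1-1 and A1-2 (x axis, log2(FPKM + 1)) and its log2 fold change in A3 against Aal (y axis), with the 52 rises that follow Sertoli transcripts in orange. Right, median and quartiles (shaded) over genes, with lines that only join libraries, of log2(FPKM + 1) minus the Aal mean in every library, for these 52 (orange) and the other 317 rises (green): the orange median is 0.37, 0.38 and 2.10 in the A1 libraries and 1.9, 1.55 and 1.34 in A3, and the green median 0.95, 1.04 and 1.00 in A1 and 1.25, 1.38 and 1.42 in A3.

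Adding the A1 libraries to the fit with no further term, which lets the spread of A1-3 from the other A1 libraries into the error, left 778 calls, with 13 of the 52 genes, 315 of the other 317 rises and 450 of the 454 falls. The Sertoli list then had 11 called rises and 2 falls. In a fit of all 8 libraries with each library's mean Sertoli list level as a term, an alternative chosen after the data were seen, limma called 794 genes, 313 higher and 481 lower. Of the 52 genes 0 were called in that fit, of the other 317 rises 248, and of the 454 falls 375. The 52 were chosen on A1-3, which is in both fits, so their loss is not separate evidence. Of all 794 calls, 623 were calls of the 5-library fit in the same direction. The replication list had 13 called rises there and the mitotic list 15, and the stem and progenitor list 14 falls and 1 rise, with no count of how many were the same genes. *Id4* had a log2 fold change of -1.31 there (limma adjusted p 0.0166). Named rises outside the 52 that were not called there included *Tubb3* (log2 fold change 0.99) and *Fabp5* (0.97). *Spp1* (limma adjusted p 0.0412) and *Hspb1* (0.0222) were also among them. In the 5 libraries alone the same term nearly coincides with the group, and no gene was called (limma, 1382 genes at an unadjusted p under 0.05).

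The Leydig, stromal, macrophage and endothelial lists were short, with 4 to 11 tested members each. Their called shares ran from 18.2% (stromal) to 28.6% (endothelial, all falls), against 17.6% called and 9.69% lower among all tested genes. Each share rests on few genes. The Leydig cell list, with 9 genes in the table, summed to 17.8 and 17.3 FPKM in Aal and 8.98, 9.24 and 7.23 in A3, and of 4 tested members *Srd5a1* fell (log2 fold change -1.57). Defining Leydig markers (3 of 7 in the table) summed to 1.64 and 2.08 FPKM in Aal and 1.27 to 1.9 in A3. Defining myoid markers (3 of 5) summed to 1.56 and 2.22 FPKM in Aal and 2.41 to 3.36 in A3, and *Col6a1* fell by 1.32 while *Sparc*, shared with Sertoli cells, was the 1 rise among the 11 tested stromal genes. Macrophage markers (3 of 8) were at 0.459 to 1.63 FPKM in all 5 libraries, and *Fcer1g* fell from 2.39 and 5.81 FPKM to 1.60, 1.16 and 1.2 (limma adjusted p 0.00966, and 0.0747 without Aal replicate 2). Endothelial markers (3 of 6) were lower in A3, at 2.10 to 2.44 FPKM against 6.55 and 7.86, and *Cdh5*, the endothelial cadherin, fell from 4.70 and 5.61 FPKM to 1.39, 1.27 and 1.12. All 7 tested genes of the endothelial list had a negative log2 fold change, and *Cd34*, named above, was its other called fall. The library A1-3 also carried more of the defining Leydig, myoid and macrophage markers than A1-1 and A1-2, so the rule above is not specific to Sertoli transcripts.

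Of 14 tested spermatocyte and spermatid genes 1 was called, *Nme8*, lower in A3 at 0.405, 0.0858 and 0.0759 FPKM against 1.65 and 1.72. No red blood cell or spermatid marker of the defining sets was in the table. Dissociation and immediate early genes went both ways, with 2 rises and 2 falls in 7 tested. The largest change of this list was that of *Gadd45b*, given above among the 15 largest rises (log2 fold change 2.87). *Hspb1*, a small heat shock protein, rose from 1.33 and 1.41 FPKM to 10.1, 8.13 and 8.29, while *Hspa1a* fell by 1.33 on the log2 scale and the early response factor *Egr3* by 1.27. *Hspa1a* has a near-identical neighbor, *Hspa1b*, so its reads are uncertain. *Hspb1* was also raised in A1-3, at 9.51 FPKM against 2.75 and 5.27 in the other A1 libraries. The part of handling in these values was not tested.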

How the data were processed

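RNA-seq was analysed for EGFP-positive spermatogonia, 2 Aal and 3 A3 libraries (3 A1 libraries beside them). Per the labels, the authors trimmed reads with cutadapt 1.9, aligned them to mm9 with STAR 2.5.2b and counted genes with featureCounts; per the study's methods the libraries were stranded, poly(A)-selected and single-end. The authors deposited FPKM values for each library. The annotation, strand setting and FPKM step are not given in the sources used here. FPKM values are whole multiples of 1 read, which gave back each read count and library total (all values, 100%, returned within a relative error of 1e-05).

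The test on log2(FPKM + 1) was limma's two-sided moderated test (version 3.58.1 under R 4.3.3, mean-variance trend, 3 residual degrees of freedom), on genes with at least 1 FPKM in at least 2 of the 5 libraries. Calls needed a p of at most 0.01 after Benjamini-Hochberg adjustment over all tested genes, with a log2 fold change beyond 1 either way. The fit was tested on simulated data. Intervals and errors from reads cover counting error only. Separate preparations are the replicates, and p-values measure the spread between them.

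The comparison, the 36 gene lists and the tests were chosen with earlier results of these data known, so they support no pattern independently. Genes named are the 15 largest rises and falls whose groups did not overlap and whose higher group averaged 5 FPKM or more, the 3 largest called changes per list and direction, *Uchl1*, *Id4*, *Nanos2*, *Upp1*, *Sohlh2*, *Rec8*, *Dmc1*, *Clu* and *Cst12*, 10 rises that follow Sertoli transcripts, the 5 genes of highest FPKM, and mitotic genes with CHR letters. Others were chosen after their values were seen. Positions come from GENCODE M1 (mm9), found for 4169 of 4687 tested genes, and promoters from RefSeq (GRCm38.p6). Lists are described by counts and medians, with no set test. Some list members are not reported here.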

Additional observations from a re-analysis of the deposited data

Results flagged for a closer look

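Sertoli markers stood out in A1-3, a library that enters no test of A3 against Aal. All 6 Sertoli markers of the table were more than 2 times as high in A1-3 as in any Aal library and in A1-1 and A1-2. *Clu* was at 220 FPKM in A1-3, *Cst12* at 59.2, *Cst9* at 41.2, *Rhox8* at 13.8, *Dhh* at 4.25 and *Fshr* at 1.39. Beside them, *Clu* was at 22.8 and 17.1 FPKM in Aal, *Rhox8* at 1.44 and 0.859, and *Fshr* at 0.0702 and 0.0506. The source of these transcripts was not tested. No test of A1-3 against the other A1 libraries was run.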

How the results depend on the processing

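The count of 823 calls was 800 to 1215 under pseudocount 0.1, no filter on low values, median-ratio scaling, quantile normalization, no mean-variance trend, an adjusted p of at most 0.05, limma voom on recovered reads and a replicate block, and 778 with all 8 libraries. It was 538 with a minimum of 5 FPKM and 2048 with no fold threshold, both changes by construction of the setting. With the Sertoli list level as a term in the 5 libraries it was 0 (limma, 1382 genes at an unadjusted p under 0.05). Leaving out 1 library gave 597 to 878 calls, lowest without Aal replicate 2. Each of these fits has fewer samples. Rises that follow Sertoli transcripts numbered 67 at an excess of 0.5, 14 at an excess of 2, 75 with pseudocount 0.1 and 55 over the mean of A1-1 and A1-2.

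Deviations of the 2 pairs with the same library number correlated at 0.04 and -0.03 across genes. The deviations of the 2 Aal libraries mirror each other, so these values cannot decide whether library numbers pair the samples. The replicate block gave 800 calls, and since A3 replicate 3 has no partner its folds rest on the other 4 libraries.

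Among the genes named in the text, signs turned in 14 values, all with the Sertoli term. Over all 823 calls the sign turned in 56 with that term in the 5 libraries and in 28 with it over all 8. In the 5 libraries the log2 fold change became -1.34 for *Cst12*, -0.18 for *Defb19*, -0.76 for *Sparc*, -0.65 for *Cpe*, -0.035 for *Slc52a3*, -0.041 for *Sh3bp5*, -1.11 for *Folr1*, -0.22 for *Rad51ap1* and -0.60 for *Ebp*, an enzyme of cholesterol synthesis. Over all 8 libraries it became -0.48 for *Sparc*, -0.036 for *Cpe*, -0.13 for *Folr1*, -0.46 for *Dhh* and -0.41 for *Rhox8*. The cause was not tested.

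The table holds 34.0% to 34.4% of the reads, and A3 rests on 3 and Aal on 2 preparations. Genes with under 10 reads are imprecise.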

Other observations

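The X chromosome held 175 tested genes, of which 26 rose (14.9%) and 19 fell (10.9%), against 7.64% and 9.59% of 3992 autosomal genes. Of the 26 rises 9 followed Sertoli transcripts. The median log2 fold change was 0.11 on the X and 0.04 on autosomes. These shares were looked at after the values were seen and are given as a description with no test.

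The called genes differed in how far the A1 libraries stood from Aal. Relative to the Aal mean, the median over the 454 falls was -0.88, -0.99 and -0.98 in the A1 libraries and -1.25, -1.39 and -1.37 in A3. The median over the 52 rises that follow Sertoli transcripts was 0.37, 0.38 and 2.10 in A1 and that over the other 317 rises 0.95, 1.04 and 1.00. *Dmrtb1* and *Gng3* were at 11.7 to 17.4 FPKM and 1.9 to 2.93 FPKM in A1 against 77.7 to 97.8 and 12.3 to 12.8 in A3. *Ddx3x* was at 75.4, 81.3 and 85.4 FPKM in A1, near its Aal level, and fell in A3. The groups were chosen by their difference from Aal, so these medians are a description of the A1 libraries only.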
